A study of Rattus norvegicus with 8 samples.

Results

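Fatty acid synthesis and desaturation was followed through 10 genes, chosen by symbol for their place in the pathway: Acly, Acss2, Acaca, Fasn, Me1, Elovl6, Scd, Elovl5, Fads2 and Fads1. Of these, 9 matched a locus of the deposited gene table exactly, out of 52753 loci in all. The gene Scd matched none by that name and was read from the locus named Scd1, which RefSeq lists as its synonym. RefSeq also gives Scd as an older name of Scd2, whose group difference had the opposite sign, so the direction given for Scd rests on this choice. The data are stranded mRNA sequencing of the small intestine, taken over its whole length, of Sprague Dawley rats at postnatal day 21, with 4 libraries labelled cystic fibrosis (CF) and 4 labelled wild type (WT). CF is an inherited disorder in which the anion channel CFTR is lost or impaired. The labels give no CF allele, sex or litter. They also do not tie libraries to separate animals, and the p-values therefore measure only how far these libraries spread, which may be technical.

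The pathway turns surplus carbon into fat. Citrate or acetate is made into acetyl-CoA in the cytosol, carboxylated to malonyl-CoA and joined into palmitate, a saturated fatty acid, with NADPH as the reductant. Elongases lengthen the product, and desaturases place double bonds in it or in the essential fatty acids of the diet, which yields arachidonic and docosahexaenoic acid. CF is known for an imbalance of these polyunsaturated fatty acids in blood and tissue. In the intestine the pathway works beside the absorption of dietary fat by enterocytes.

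The libraries held 15255364 to 20890031 fragments and are named here by group and by the table's numbers from 0 to 3, which carry no order. The CF library 0 was low in most of the enterocyte genes listed. Its 14 enterocyte markers with a locus (Fabp2, Apoa1, Lct and others) summed to 12300 CPM (fragments scaled to library size), against 24400 to 35010 CPM in the other CF libraries and 19020 to 32820 CPM in WT. Mttp, Slc5a1 and Slc15a1 of this list lay inside their WT ranges in CF library 0, and the others lay below theirs. Fat cells also make fatty acids, and the tissue had been trimmed of fat and mesentery per the labels' protocol. The 15 adipocyte markers summed to 191.7 to 256.8 CPM in CF and 186.6 to 242.6 CPM in WT. Most of this sum came from Aqp7, Lipe, Fabp4 and Cidec. Aqp7 was lowest in CF library 0 (20.7 CPM) and highest in CF library 1 (104.5 CPM), as was the enterocyte sum. The adipocyte sum is therefore not read as fat cell content. The groups did not overlap for Plin1, at 0.598 to 1.78 CPM in CF and 1.86 to 3.71 CPM in WT, nor, in the other direction, for Cfd, at 4.01 to 5.80 and 2.26 to 3.62 CPM, and neither passed the test. Adipoq was at 1.25 to 8.15 CPM, Lep at 0.27 CPM or less, and Adig and Ucp1 were listed at 0 throughout. Several other marker lists had different ranges in the groups. The 4 red cell genes with a locus summed to 90.3 to 124 CPM in CF and 151 to 351 CPM in WT, and 1 of them, Hba-a2, passed the test. Of 12 tested genes that respond to tissue handling (Fos, Egr1 and others), all had higher means in CF and 1, Junb, passed, with sums of 404 to 501 CPM against 236 to 343 CPM. Over all tested loci, 0.165% passed this test, described below, and 49.2% had a higher mean in CF. Sums for 6 smooth muscle genes were 5651 to 7332 CPM in CF and 3741 to 5508 CPM in WT. Of these genes, Des and Cnn1 had log2 fold changes of 0.97 and 0.88. Acta2, Myh11 and Synm had 0.12, 0.14 and 0.15, and Mylk had −0.10. Sums for 8 goblet cell genes were 10210 to 15080 CPM in CF and 6611 to 11650 CPM in WT. The part of these marker lists in the results on fatty acid genes was not tested. In whole tissue, fewer cells of a type and less RNA per cell cannot be told apart.

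None of the 9 members that could be tested passed the quasi-likelihood test of edgeR at a threshold of 0.05, Benjamini-Hochberg adjusted over all 16941 tested loci. Over all of these loci, 28 passed, or 0.165%. At an unadjusted p of 0.05, 2 members passed, Fasn and Acly, where 15.1% of all tested loci did. The same 2 were the members whose CF and WT libraries did not overlap in CPM, which held for 8.78% of all tested loci. Both shares rest on 9 genes and are read only against that background. Means were higher in CF for 6 members and lower for 3. The median log2 fold change of CF over WT was 0.12 for the members and −0.01 for all tested loci. DESeq2 called 1 member, Fasn, with an adjusted p of 0.0475, and 1.41% of the 40061 loci it was fitted on. Unlike the members, many of those loci had counts too low for the edgeR test, so that share is not a like background.

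**Figure D1:**
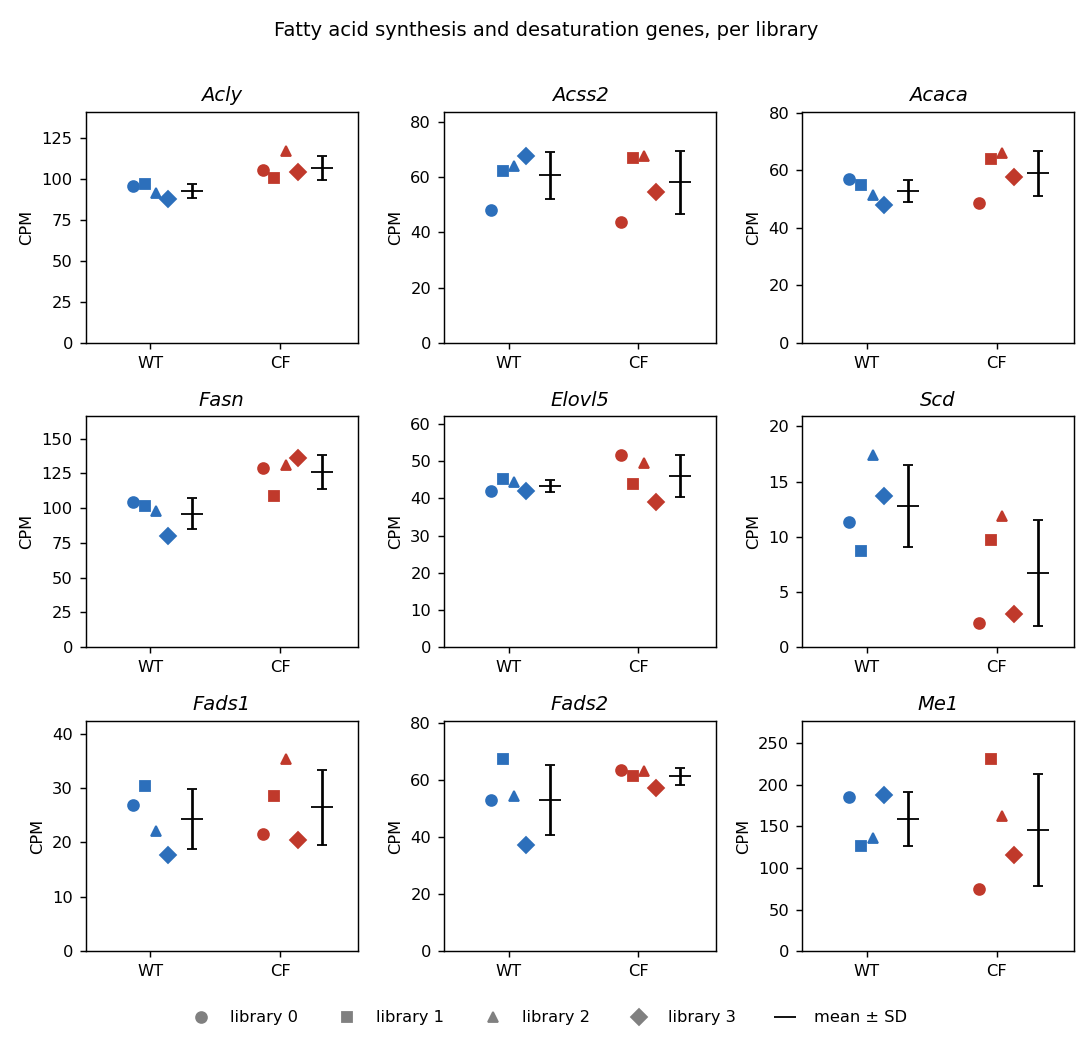
Level of each tested member in CPM (vertical axes, starting at 0) in the 4 WT and the 4 CF libraries, with a symbol for each library number and the mean ± SD beside each group. The groups stand apart for Fasn and Acly, while Scd and Me1 vary most within CF.

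Fasn (chromosome 10, 109987733 to 110005941, Rnor_6.0), the multi-enzyme protein that assembles palmitate, had the largest difference on the higher side among the members. It was at 128.7, 108.5, 131.0 and 136.3 CPM in CF libraries 0, 1, 2 and 3, and at 104.6, 101.4, 97.7 and 79.6 CPM in WT libraries 0, 1, 2 and 3. Every CF library lay above every WT library, though CF library 1 exceeded WT library 0 by little. The means were 126.1 ± 12.2 and 95.8 ± 11.2 CPM (SD, n = 4 each), a log2 fold change of 0.40 (SE 0.12), or 1.32-fold, with a 95% interval of 0.14 to 0.66 on the log2 scale. Its adjusted p from edgeR's quasi-likelihood test was 0.175 (0.00648 before adjustment). With any 1 library left out the log2 fold change stayed between 0.32 and 0.46, and no such fit called it.

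The separation of Fasn in CPM was not seen on every measure. In edgeR its log2 fold change was 0.401 with DESeq2 size factors and 0.358 with upper quartile scaling, and neither fit called it. On the authors' FPKM (fragments per transcript length and library size) Fasn was at 14.7, 8.80, 12.7 and 8.64 in CF and at 10.7, 8.17, 9.50 and 6.80 in WT, so that 2 CF libraries fell inside the WT range. Relative to CPM, the FPKM of CF library 3 were lower by a median of 0.30 log2 units over 16827 loci, while the other libraries were shifted by −0.05 to 0.13. The part of this shift in the Fasn values was not tested. On log2(FPKM + 1) limma gave a log2 fold change of 0.31 for Fasn, with an adjusted p of 0.846. No member had groups that stood apart on the FPKM scale.

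Acly (chromosome 10, 88392247 to 88442845), which splits citrate into acetyl-CoA in the cytosol, showed a smaller difference. Its level was 105.3, 100.3, 117.1 and 104.1 CPM in CF and 95.6, 96.8, 91.1 and 87.5 CPM in WT. The CF libraries were all above the WT libraries, and the spread within each group was narrow. The log2 fold change was 0.20 (SE 0.09), with a 95% interval of 0.00 to 0.40. By edgeR's quasi-likelihood test the adjusted p was 0.328 (0.0489 before adjustment).

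Acaca (chromosome 10, 71503390 to 71721874), the carboxylase that makes malonyl-CoA and sets the pace of the pathway, was at 48.5, 63.8, 65.9 and 57.8 CPM in CF and at 56.9, 54.9, 51.4 and 48.1 CPM in WT. CF libraries 1, 2 and 3 lay above the WT range and CF library 0 lay inside it, near the lowest WT library. Its log2 fold change of 0.16 (SE 0.12, edgeR adjusted p = 0.540) was 0.24 without CF library 0 and 0.10 without CF library 2, and it passed in neither case (adjusted p = 0.268 and 0.716).

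The other source of cytosolic acetyl-CoA had no difference that passed the test. Acss2 (chromosome 3, 151032951 to 151075856), which activates acetate, was at 43.6, 66.7, 67.6 and 54.4 CPM in CF and 48.1, 62.2, 64.1 and 67.7 CPM in WT, with overlapping groups. Its log2 fold change was −0.06 (SE 0.16, edgeR adjusted p = 0.891) and turned to 0.06 without CF library 0. The 95% interval runs from 0.754-fold to 1.22-fold.

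Promoter sequence of 7 members was at hand from RefSeq (GRCr8, 250 bases before to 50 after the start), and it was searched on both strands for 3 motifs linked to lipogenic control. No promoter sequence was at hand for Fasn, Acaca and Elovl6, which were therefore not searched. The sterol response element TCACNCCAC was in none of the 7 windows, and in 1.12% of 33469 windows of this length. The E-box CACGTG was in 1 of 7, that of Elovl5, against 6.42% of all windows. The NF-Y box CCAAT was in 4 of 7, against 37.5% of all. A match is a run of letters, and neither a match nor its absence says whether a factor binds. The stretches around an NF-Y box upstream of Acly, Acss2 and Fads1 are shown because they lie in members with differing behaviour (Acly with groups apart in CPM, the other two with overlapping groups). They are written on the gene's strand from 5′ to 3′ with the box, or its reverse complement in Acss2, in capitals, and lie at chr10:85963678-85963722 on the minus strand, chr3:164464610-164464654 on the plus strand and chr1:216252551-216252595 on the plus strand in that order.
Acly: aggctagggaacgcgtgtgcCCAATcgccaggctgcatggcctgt
Acss2: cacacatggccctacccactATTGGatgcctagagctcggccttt
Fads1: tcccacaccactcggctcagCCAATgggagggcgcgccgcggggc

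Me1 (chromosome 8, 94256072 to 94369005), the cytosolic malic enzyme that yields NADPH, had the highest level per length of all members and one of the widest spreads. It was at 74.2, 230.5, 161.9 and 115.8 CPM in CF, a 3.11-fold range, and at 185.1, 125.8, 136.3 and 187.8 CPM in WT, a 1.49-fold range. The CF libraries reached both above and below the WT range. CF library 0, low in enterocyte markers, was the lowest for Me1, and CF library 1, with the highest enterocyte sum, was the highest. Between them the order did not hold. CF library 3 had a higher enterocyte sum than CF library 2 (27060 against 24400 CPM) but less Me1. In WT, libraries 0 and 3 had higher enterocyte sums (28370 and 32820 CPM) than libraries 1 and 2 (21960 and 19020 CPM), and more Me1. Between WT libraries 1 and 2 the order was reversed. The part of cell composition in this spread was not tested. The log2 fold change of −0.13 (SE 0.31, edgeR adjusted p = 0.887) turned to 0.10 without CF library 0.

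**Figure D2:**
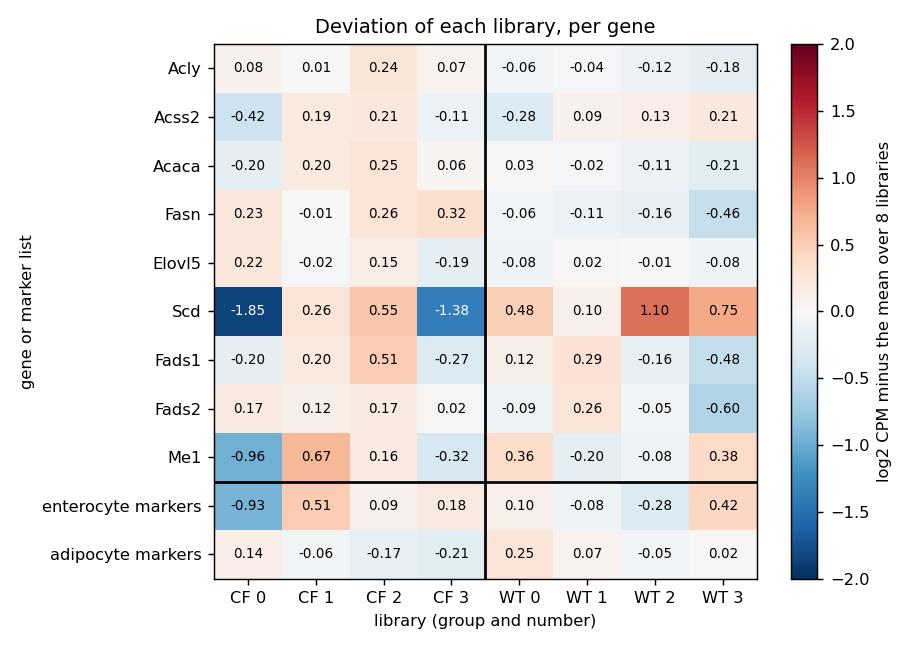
Deviation of each library (columns, CF left and WT right) from the mean over 8 libraries in log2 CPM, for each tested member and, below the line, the mean over 14 enterocyte and 12 adipocyte markers. CF library 0 is lowest for Scd (−1.85), Me1 (−0.96), Acss2 (−0.42) and the enterocyte markers (−0.93), while Fasn and Acly are not low there.

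Among the desaturases, Scd was the member with the largest difference and the least certain one. Scd is the desaturase that places a double bond in saturated fatty acids and yields oleate. It was at 2.17 and 3.04 CPM in CF libraries 0 and 3, at 9.70 and 11.9 CPM in CF libraries 1 and 2, and at 11.3, 8.68, 17.4 and 13.7 CPM in WT. CF libraries 0 and 3 lay below every WT library, and CF libraries 1 and 2 lay inside the WT range. The counts behind these values were low, from 45 fragments in CF library 0 to 374 in WT library 2. The log2 fold change was −0.94 (SE 0.52), with a 95% interval from 0.230-fold to 1.18-fold (edgeR adjusted p = 0.435). It was −0.64 without CF library 0 and −0.70 without CF library 3. Enterocyte markers were low in CF library 0 and summed to 27060 CPM in CF library 3. Some other intestinal markers were low in both of these libraries, and others were not. The ileal bile acid binding gene Fabp6 was at 71.7 and 165.7 CPM in CF libraries 0 and 3. It was at 525 to 1114 CPM in the other 6 libraries. For 6 proximal gut genes the sums were 184.3 and 204.1 CPM against 251 to 318.5 CPM. Of the same list of distal gut genes as Fabp6, Slc10a2 was at 38.5 and 118.3 CPM, its lowest and highest levels over all libraries. Guca2a was at 239.6 and 685.7 CPM against 426.2 to 734.4 CPM. The proximal gut gene Gata4 was at 106.2 and 114.2 CPM, inside its WT range of 104 to 146.5 CPM. The part of these markers in the levels of Scd was not tested.

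Of the stearoyl-CoA desaturase genes, the paralog Scd2 had a higher level per length than Scd in every library. Scd2 was at 33.8 to 116 FPKM in CF and 16.9 to 54.2 FPKM in WT, where Scd was at 0.457 to 2.57 and 1.82 to 3.62 FPKM. The Scd2 locus lies 87.5 kb from that of Scd on chromosome 1 (264059373 to 264072433 against 264159970 to 264173059, Rnor_6.0). Scd2 was at 148, 483, 569 and 199 CPM in CF and at 229, 220, 118 and 81.1 CPM in WT. CF libraries 1 and 2 were the highest, and CF libraries 0 and 3 lay inside the WT range. Its log2 fold change was 1.11 (SE 0.52, edgeR adjusted p = 0.356). The coding sequences of these paralogs are alike, so fragments could have been shared between them.

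Set against Scd2, Scd was lower in each CF library than in each WT library. The log2 ratio of Scd to Scd2 in CPM was −6.10, −5.64, −5.58 and −6.03 in CF and −4.34, −4.66, −2.76 and −2.56 in WT. The means were −5.84 ± 0.26 and −3.58 ± 1.07 (SD, n = 4 each), and on FPKM they were −5.81 ± 0.36 and −3.57 ± 1.12. The scaling between libraries does not enter this ratio. This pair was chosen after its values had been seen, so the difference is a description and was not tested.

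**Figure D3:**
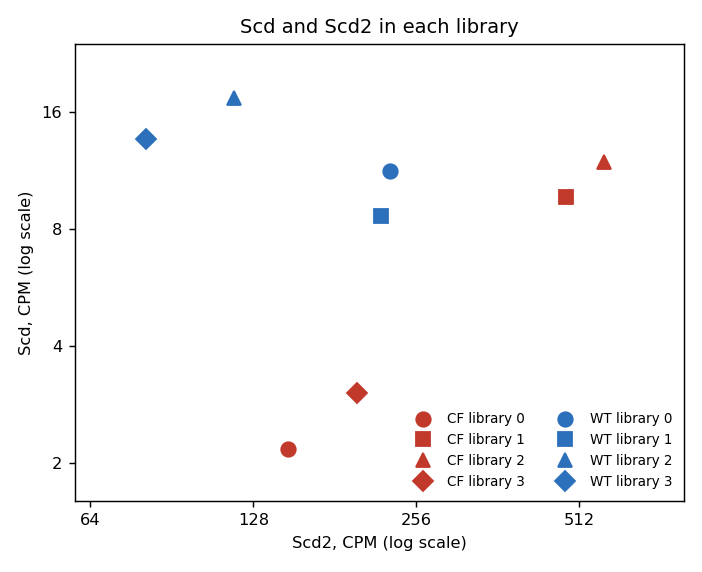
Scd against Scd2 in CPM, both on log scales, with 1 point for each library (red CF, blue WT). At like levels of Scd, between 8.68 and 11.9 CPM, the CF libraries 1 and 2 hold 483 and 569 CPM of Scd2 and the WT libraries 0 and 1 hold 229 and 220 CPM, while CF libraries 0 and 3 are low in Scd at a Scd2 level inside the WT range.

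None of the 3 genes that convert essential fatty acids passed the test. Fads2 (chromosome 1, 225906509 to 226154149), which carries out the entry desaturation of linoleic and linolenic acid, was at 63.5, 61.2, 63.3 and 57.2 CPM in CF and at 52.8, 67.3, 54.3 and 37.2 CPM in WT. The CF values were tight and lay inside the WT range, which WT library 3 widened at its lower end. The log2 fold change was 0.21 (SE 0.15, edgeR adjusted p = 0.547), and it was 0.08 without WT library 3 and 0.35 without WT library 1. The deposited span of the Fads2 locus is 247.6 kb long and also covers the ferritin gene Fth1 and the paralog Fads3, so shared fragments are possible there.

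Elovl5 (chromosome 8, 85220960 to 85287449), which lengthens the product of Fads2, was the member that varied least within WT. It was at 51.7, 43.8, 49.4 and 39.1 CPM in CF and at 42.1, 45.2, 44.3 and 42.1 CPM in WT. CF libraries lay on both sides of the WT range. The log2 fold change was 0.08 (SE 0.11, edgeR adjusted p = 0.753), and its 95% interval, 0.900-fold to 1.25-fold, was among the narrowest of the members.

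Fads1 (chromosome 1, 226234073 to 226249138), which makes arachidonic and eicosapentaenoic acid after that elongation, was at 21.5, 28.5, 35.3 and 20.5 CPM in CF and at 26.9, 30.4, 22.1 and 17.7 CPM in WT. Only CF library 2 lay outside the WT range. The log2 fold change was 0.12 (SE 0.21, edgeR adjusted p = 0.821) and turned to −0.05 without CF library 2. The 95% interval of the log2 fold change, −0.34 to 0.59, was wider than that of Elovl5.

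Elovl6, the elongase that turns palmitate into stearate, was listed at 0 fragments in all 8 libraries. No level or difference can be given for it. Of 71 ribosomal protein genes in the table, 4 that every cell uses (Rpl35a, Rpl38, Rpl39 and Rps6) were also listed at 0 throughout, so this 0 is not read as absence of the transcript.

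**Figure D4:**
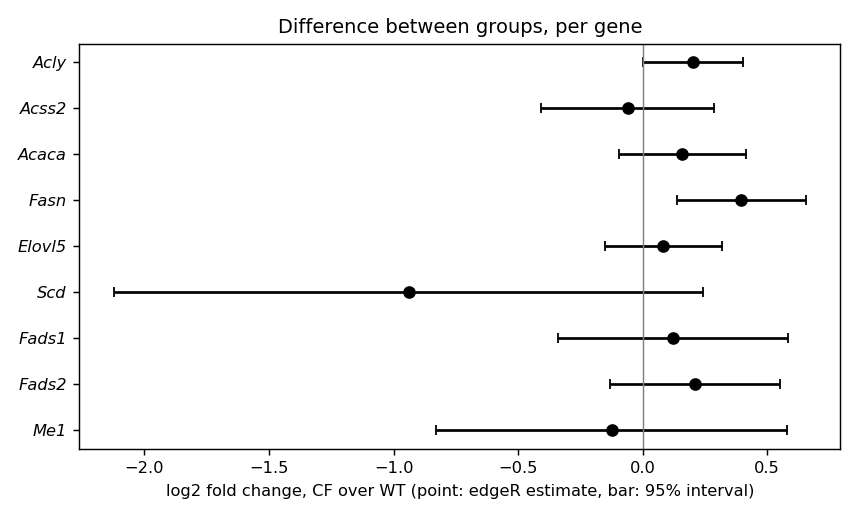
Log2 fold change of CF over WT for each tested member (points, edgeR estimates) with its 95% interval (bars, not adjusted for the number of genes). The interval lies above 0 for Fasn (0.14 to 0.66) and just above it for Acly (0.00 to 0.40), and it is widest for Scd (−2.12 to 0.24).

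Levels per length put the members in order on the authors' FPKM scale. In WT, Me1 led with 57.1 ± 14.3 FPKM (SD, n = 4) and stood clear of the next gene. Fads2 (22.6 ± 6.48), Acss2 (18.1 ± 1.69), Elovl5 (17.3 ± 1.74) and Acly (16.6 ± 1.95) formed a group in which each overlapped its neighbour. Fasn (8.78 ± 1.66), Fads1 (6.44 ± 1.48) and Acaca (5.03 ± 0.534) formed another, and Scd was lowest of the tested members at 2.70 ± 0.750 FPKM. In CF the order of the means was the same at its upper and lower ends, with Me1 at 53.2 ± 32.7 and Scd at 1.46 ± 1.12 FPKM.

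Ratios between members that act in sequence were compared within libraries, since these do not depend on the scaling. The log2 ratio of Fads1 to Fads2, in FPKM, averaged −1.95 ± 0.31 in CF and −1.79 ± 0.29 in WT (two-sided exact permutation test, p = 0.4857, adjusted over 3 ratios 0.5714). The ratio of Elovl5 to Fads2 averaged −0.52 ± 0.24 and −0.33 ± 0.51 (exact permutation p = 0.5714, adjusted 0.5714). The ratio of Scd to Fasn was −5.01, −1.95, −2.31 and −4.01 in CF and −2.11, −2.16, −1.39 and −1.24 in WT. Its CF libraries 0 and 3 were far below the rest, while CF library 1 lay inside the WT range (difference −1.60, exact permutation p = 0.1143, adjusted 0.3429). The smallest p that 4 against 4 libraries allow is 0.0286, or 0.0857 after adjustment where a single ratio reaches it, so no ratio could pass alone.

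The genes around the pathway were followed in 6 lists with 102 entries, of which 94 genes were tested. None passed edgeR's adjusted threshold in either direction, against 0.165% of all tested loci, and 21 passed an unadjusted p of 0.05, where 15.1% of all did. Over these 94 genes 52 had higher means in CF, and the median log2 fold change was 0.05. The groups did not overlap in CPM for 13 of them, where this held for 8.78% of all tested loci. Without a low-count filter edgeR called 6 of them, against 1.38% of 40061 loci. DESeq2 also called 6, against 1.41% of those loci. Elovl1, Insig1, Lpcat4, Mboat1 and Thrsp were called in both. The 94 genes had all passed the low-count filter, while the 40061 loci include many that had not. These shares are therefore not a like background.

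Regulators of fat synthesis gave 11 higher and 8 lower means among 19 tested. The most abundant were Mlxipl, the carbohydrate-sensing transcription factor of lipogenic genes, with a mean of 230.4 CPM in CF against 278.1 CPM in WT and groups that did not overlap (log2 fold change −0.27, SE 0.10, edgeR adjusted p = 0.258), and Ppard, a nuclear receptor for fatty acids, with a log2 fold change of −0.11 (adjusted p = 0.795). Srebf1, whose product drives the transcription of most members, was at 64.1 ± 16.9 and 68.5 ± 24.3 CPM (log2 fold change −0.10, SE 0.27, and −0.25 to 0.10 over 20 alternatives). Insig1 and Thrsp, chosen after their values were seen, lay at the ends of the list among genes with groups that did not overlap. Insig1, which holds the SREBP precursor in the endoplasmic reticulum and is itself a target of SREBP, was at 82.0 ± 17.4 against 45.4 ± 6.52 CPM (log2 fold change 0.85, edgeR adjusted p = 0.0710). Thrsp, a lipogenic cofactor gene, was at 0.519 ± 0.319 against 1.83 ± 0.499 CPM (−1.83, adjusted p = 0.108). Its counts were low, with 174 fragments over all libraries, and its log2 fold change was −2.11 to −0.72 over 20 alternatives.

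Among 15 tested genes for the supply of carbon and NADPH, 11 had a higher mean in CF, with a median log2 fold change of 0.24. Mdh2, the mitochondrial malate dehydrogenase gene, and Tkt, a transketolase gene of the pentose phosphate pathway, were the most abundant. Mdh2 had a log2 fold change of 0.23 with overlapping groups (edgeR adjusted p = 0.622). Tkt was at 483.3 ± 26.7 CPM in CF against 390.6 ± 26.0 CPM in WT with groups that did not overlap (log2 fold change 0.31, edgeR adjusted p = 0.232). For the citrate carrier gene Slc25a1 the log2 fold change was 0.19 (SE 0.16), with an edgeR adjusted p of 0.619.

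Malonyl-CoA turnover and fatty acid activation had 6 higher and 7 lower means among 13 tested. Acsl5, the leading acyl-CoA synthetase gene of the list, was at 1211 ± 249 CPM in CF against 1198 ± 438 CPM in WT. The mitochondrial synthetase gene Acsf2 was at 136.2 ± 54.6 and 154.0 ± 21.8 CPM. Acacb, the carboxylase whose malonyl-CoA restrains fatty acid oxidation, differed by 0.26 log2 units (SE 0.18, edgeR adjusted p = 0.522).

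In the elongation cycle, Elovl1 had the largest difference on the higher side. This elongase acts on saturated and monounsaturated acyl chains of very great length, used in sphingolipids. It was at 152.3 ± 25.2 CPM in CF against 93.3 ± 7.90 CPM in WT, with groups that did not overlap and a log2 fold change of 0.71 (SE 0.13, edgeR adjusted p = 0.0657). Over 20 alternatives its log2 fold change was 0.60 to 0.78 and its adjusted p ran from 0.000121 to 0.227. The other 3 tested elongase genes of the list, Elovl2, Elovl4 and Elovl7, had log2 fold changes of −0.10, −0.25 and −0.11. Tecr, the reductase of the last step, was at 152.3 ± 36.9 and 149.4 ± 11.1 CPM. The list had 6 higher and 4 lower means among 10 tested.

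The other desaturases and their electron supply were split evenly, with 5 higher and 5 lower means among 10 tested and a median log2 fold change of 0.02. Besides Scd2, the most abundant was Degs2, a desaturase of sphingolipids, at 219.8 ± 46.5 CPM in CF against 179.7 ± 19.0 CPM in WT. The cytochrome b5 gene Cyb5a and its reductase gene Cyb5r3, which pass electrons to the desaturases, had log2 fold changes of 0.05 and 0.08. Fads3 had one of 0.16 (SE 0.39).

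Genes that release, re-esterify or oxidise polyunsaturated fatty acids had 13 higher and 14 lower means among 27 tested. The secreted phospholipase gene Pla2g2a (811.4 ± 393 against 589.8 ± 270 CPM) and the lysophospholipid acyltransferase gene Lpcat3 (314.3 ± 131 against 306.9 ± 57.2 CPM) led in level. Named after their values were seen, the acyltransferase genes Lpcat4 and Mboat1 had higher means in CF and groups that did not overlap. Groups also did not overlap for Alox15 and Lpcat2, with lower means in CF. That makes 4 of the 27 genes, where this held for 8.78% of all tested loci. Lpcat4 differed by 0.83 log2 units (SE 0.16, edgeR adjusted p = 0.0689) and Mboat1 by 0.97 (SE 0.20, adjusted p = 0.0814). The lipoxygenase gene Alox15 was at 5.01 ± 2.41 CPM in CF against 12.4 ± 3.71 CPM in WT (log2 fold change −1.30, SE 0.35, adjusted p = 0.154). The cyclooxygenase gene Ptgs2 was at 61.8 CPM in CF library 0 and at 5.05 to 12.6 CPM in the other 7 libraries (log2 fold change 1.61, SE 0.72, adjusted p = 0.342).

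**Figure D5:**
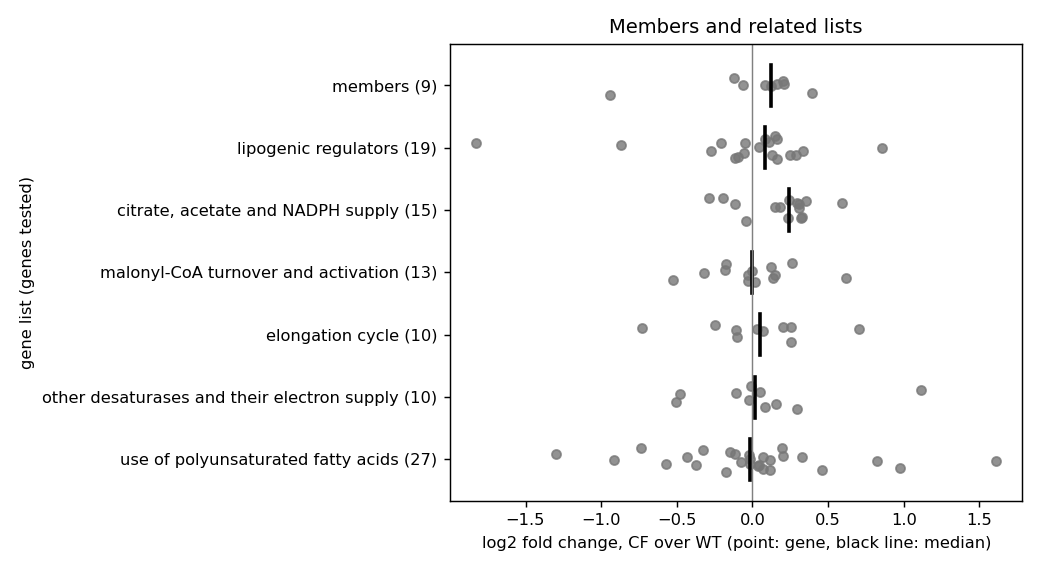
Log2 fold change of CF over WT (horizontal axis) for each tested gene of the members and of the 6 related lists, with the number tested in brackets and the median as a black line. The medians lie between −0.02 and 0.24, and no point passed the adjusted threshold.

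The mean of the tested members, as centred log2 CPM, ranged from −0.33 in CF library 0 and −0.20 in CF library 3 to 0.18 and 0.28 in CF libraries 1 and 2, with WT from −0.08 to 0.06. Scd and Me1, which vary most, weigh most in it. The genes with the most similar pattern over the 8 libraries were Vps9d1 (Pearson r = 0.980), Tppp3 (0.968), Baiap2l2 (0.964), Tmem203 (0.956) and Crhr2 (0.956). They were picked as the highest of all named loci, so these values have no p. None passed edgeR's test of CF against WT, with adjusted p-values from 0.856 to 0.998. The pattern has CF libraries on both sides of WT, so genes picked by it had little room for a group difference. Crhr2 was also low in level, with means of 0.606 CPM in CF and 0.583 CPM in WT.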

How the data were processed

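The authors' Cuffdiff gene table gives raw fragments for each locus, not yet scaled, which were taken as estimated counts, per the file headers. Of these, 5.99% were fractional and all were rounded. The FPKM values, per library, were deposited by the authors after Cuffdiff's own scaling, per the file headers. The submitters' processing notes name bcl2fastq, cutadapt, STAR 2.3.1z, StringTie, Cuffdiff and build Rnor_6.0, without their settings. A remaining 2 value columns of the table were not used here. The table numbers libraries from 0 to 3 and the titles from 1 to 4, so only the group of each library is known.

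Loci were kept by filterByExpr (minimum count 10, minimum total 15) and scaled by TMM. CPM use these scaled library sizes. CF was compared with WT by edgeR 4.0.16 (robust quasi-likelihood test, checked on simulated data) with R 4.3.3, and by limma 3.58.1 and DESeq2 1.42.0 as alternatives. SE is the log2 fold change over the square root of F. Scores used log2 CPM with a prior count of 2. Tables were made with pandas 2.3.3 under Python 3.11.15, and figures with matplotlib 3.10.9.

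The members, 6 pathway lists and 12 marker lists (212 entries besides the members) were chosen with earlier results of these data known. Of each pathway list, called genes (at most 4) and the 2 most abundant were named, with the 5 genes most like the members' mean. Other names were chosen after their values were seen.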

Additional observations from a re-analysis of the deposited data

How the results depend on the processing

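Over 20 alternative fits no member passed the threshold in edgeR or limma, and 1 (Fasn) passed in DESeq2. Signs turned for 3 members, each time with 1 library left out: Acss2 to 0.057 and Me1 to 0.095 without CF library 0, and Fads1 to −0.047 without CF library 2. With 1 library left out the log2 fold change ranged from −0.155 to 0.057 for Acss2, −0.436 to 0.095 for Me1 and −0.047 to 0.249 for Fads1. Of the 94 tested pathway genes, 31 turned in sign in at least 1 alternative, among them Srebf1, Ppard, Acsl5, Acsf2, Elovl2, Tecr, Fads3, Cyb5a, Cyb5r3 and Lpcat3 of those named. The count of called genes in the pathway lists was 0, 6 without a low-count filter, 6 in DESeq2, and 0 to 3 with 1 library left out (3 without CF library 0, 1 without CF library 2). The count over all loci was 28. It was 553 without a low-count filter, 566 in DESeq2, 17 in limma-voom, and 5 to 136 with 1 library left out, lowest without WT library 1 or 2 and highest without CF library 0. The cause was not tested.

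With the replicate block (the table's library number) no member and no pathway gene was called, and 11 loci were called in all. Deviations of libraries with the same number were weakly correlated (0.065, −0.106, 0.163 and −0.008 for numbers 0, 1, 2 and 3). The same-numbered WT library was the most alike for CF libraries 0 and 2, but not for CF libraries 1 and 3. Whether a number stands for a shared batch or litter cannot be told from this.

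The ratio of Elovl5 to Fads2 differed by −0.38 to 0.034 with 1 library left out and turned in sign without WT library 3. The other 2 ratios kept their signs, at −0.304 to −0.045 for Fads1 to Fads2 and −2.051 to −1.031 for Scd to Fasn. With so few libraries a single ratio cannot go below an adjusted p of 0.0857, so these tests say nothing about stability. A ratio of Elovl6 to Fasn, also planned, could not be formed because Elovl6 was listed at 0.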
